A study of Mus musculus with 4 samples.

Results

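The inflammatory cytokines interleukin-1 (IL-1), tumour necrosis factor (TNF) and interleukin-6 (IL-6) were followed, with their receptors, across the cell classes of the contrast-injured mouse kidney. The set held 10 genes of the 57132 in the files, picked by gene symbol: the ligands Il1a, Il1b, Tnf and Il6, the IL-1 antagonist Il1rn, and the receptors Il1r1, Il1r2, Tnfrsf1a, Tnfrsf1b and Il6ra. All 10 were listed in all 4 libraries. The libraries came from dissociated kidneys of 4 wild-type mice, labelled CIAKI 1 to 4 and called mice 1 to 4 here, and were made on the 10x Genomics droplet platform. Every mouse had contrast-induced acute kidney injury, a fall in kidney function after a radiological contrast agent. The agent, the dose, the time of collection and the age and strain of the mice are not stated in the labels used here. No kidney without contrast was analysed here, so each comparison sets one cell class against another inside injured kidneys and none measures an effect of contrast.

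IL-1α and IL-1β both signal through the receptor encoded by Il1r1, while Il1rn encodes a secreted antagonist of that receptor and Il1r2 a decoy that binds IL-1 without signalling. TNF acts through the widely expressed receptor Tnfrsf1a and through Tnfrsf1b, which is typical of leukocytes and endothelium. IL-6 binds the receptor chain encoded by Il6ra and then the shared signalling chain Il6st, and its membrane-bound receptor is best known from leukocytes and hepatocytes. In injured kidney, these cytokines are known as products of infiltrating myeloid cells, stroma and endothelium.

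The promoters of Il6, Il1b and Tnf are shown because all 3 are textbook targets of the transcription factor NF-kB, while their transcripts were counted in different cell classes, as described below. The 250 bases before the RefSeq transcript start lie at chr5:30012864-30013113 on the plus strand for Il6, at chr2:129371140-129371389 on the minus strand for Il1b and at chr17:35202008-35202257 on the minus strand for Tnf (RefSeq, build GRCm38.p6). Sequences are in lower case, and capitals mark matches on either strand to the NF-kB consensus, to TTGCNNAA (C/EBP) and to TGANTCA (AP-1).
Il6: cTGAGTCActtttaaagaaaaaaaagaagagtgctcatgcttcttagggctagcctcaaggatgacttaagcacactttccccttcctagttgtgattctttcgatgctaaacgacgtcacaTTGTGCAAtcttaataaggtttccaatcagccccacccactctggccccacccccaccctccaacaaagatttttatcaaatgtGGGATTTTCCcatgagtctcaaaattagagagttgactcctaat
Il1b: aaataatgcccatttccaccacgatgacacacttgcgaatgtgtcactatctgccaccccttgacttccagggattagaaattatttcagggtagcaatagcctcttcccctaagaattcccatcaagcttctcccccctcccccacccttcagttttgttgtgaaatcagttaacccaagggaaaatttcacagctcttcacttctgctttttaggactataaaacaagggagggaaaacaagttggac
Tnf: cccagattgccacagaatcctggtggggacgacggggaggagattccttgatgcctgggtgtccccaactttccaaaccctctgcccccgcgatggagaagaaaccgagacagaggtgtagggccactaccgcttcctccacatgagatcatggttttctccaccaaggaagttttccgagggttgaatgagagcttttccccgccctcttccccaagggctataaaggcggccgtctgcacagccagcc
The Il6 window held 1 match of each kind, beginning 44 bases (NF-kB), 128 bases (C/EBP) and 249 bases (AP-1) before the start, and none of the 3 overlapped. The Il1b and Tnf windows held no match to these 3 patterns, which says only that these letters are not in these windows. Of 32851 promoter windows of the same length, 3.9% held the NF-kB consensus, 9.56% the C/EBP pattern and 6.75% the AP-1 pattern. All 10 genes had at least 1 promoter entry, 13 in all, and 1 of the 2 Il1r1 entries also held an NF-kB match.

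The 4 libraries held 36831995 to 105436725 unique molecular identifiers (UMIs, one per captured transcript), and 7085, 8751, 12903 and 12091 cells of mice 1 to 4 were kept. Cells were clustered without the 10 genes, and clusters were named from marker genes with the suffix "-like". Of 37 clusters, 4 stayed unnamed, and 13 classes had at least 20 cells in all 4 mice. Orders of classes and statements on other classes cover these 13, and leave out the dendritic-, NK-, B lymphocyte- and urothelium-like classes. Mouse 3 stood apart. It supplied nearly all cells of neutrophil-like cluster 17 (943 of 979), macrophage-like cluster 8 (1521 of 1522), monocyte-like cluster 11 (1365 of 1372) and endothelial-like clusters 1 (3029 of 3062) and 24 (590 of 590). Its results are given with and without it where they rest on it. Cluster 1 passed 9 of 10 endothelial markers, but its 10 leading genes held none of them and 1 marker of the capsule epithelium. Endothelial tests given also without it are those of Il1r1 and Tnfrsf1a against proximal tubule and of Il6 and Tnf against stroma. Levels of the endothelial-like class include it. Cluster 8 passed only 3 of 10 macrophage markers and was led by Il27. Cluster 17 was led by Camp, Ngp and Ltf. None of these was among the 10 leading genes of clusters 0 or 5, which held most neutrophil-like cells of the other mice. Neutrophil-like levels of mouse 3 thus came from a different cluster. Whether they differ by mouse or by the kind of neutrophil was not tested. Mouse 4 was the shallowest, with a median of 2077 UMIs per cell against 5549 to 5780 in mice 1 to 3, and ribosomal protein genes took a median 14.5% of its UMIs against 1.57% to 2.55%. It shared 1 cell barcode with the other libraries, while mice 1 to 3 shared 23 to 54 pairwise. Levels are UMIs of a gene per 1000000 UMIs (CPM) of a class within 1 mouse. Classes next to each other in order were taken to differ when the mean paired difference of log2(CPM + 1) exceeded its SD and had the same sign in all mice.

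Il1b, the main secreted IL-1 of myeloid cells, was highest in neutrophils. In neutrophil-like cells it reached 16018, 15334, 10791 and 5419 CPM in mice 1 to 4. Monocyte-like cells held 9311, 5119, 814 and 2543 CPM, and macrophage-like cells 1871, 1259, 449 and 1027 CPM. The order neutrophil, monocyte, macrophage was the same in all 4 mice, and each step exceeded the spread of its paired differences (1.80 ± 1.33 and 1.63 ± 0.66 on the log2 scale, SD, n = 4). Averaged over mice, neutrophil-like cells contained 58.1% of all Il1b UMIs, although this share ran from 20.8% to 83.4% between mice. In mouse 4 macrophage-like cells contained more, 66.7%, and in mouse 1 the unnamed clusters contained 38.7%. A UMI of Il1b was found in 95.9% ± 4.21 (SD, n = 4) of neutrophil-like cells and 55.3% ± 21.1 of macrophage-like cells, or in 94.3% and 36.8% after thinning each cell to 1000 UMIs. In T lymphocyte-like cells, which are not known as a source of Il1b, the shares were 24.2% ± 21.3 and 10.1%, with medians of 1723 to 4901 UMIs per cell against 1754 to 6759 in neutrophil-like cells.

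**Figure D1:**
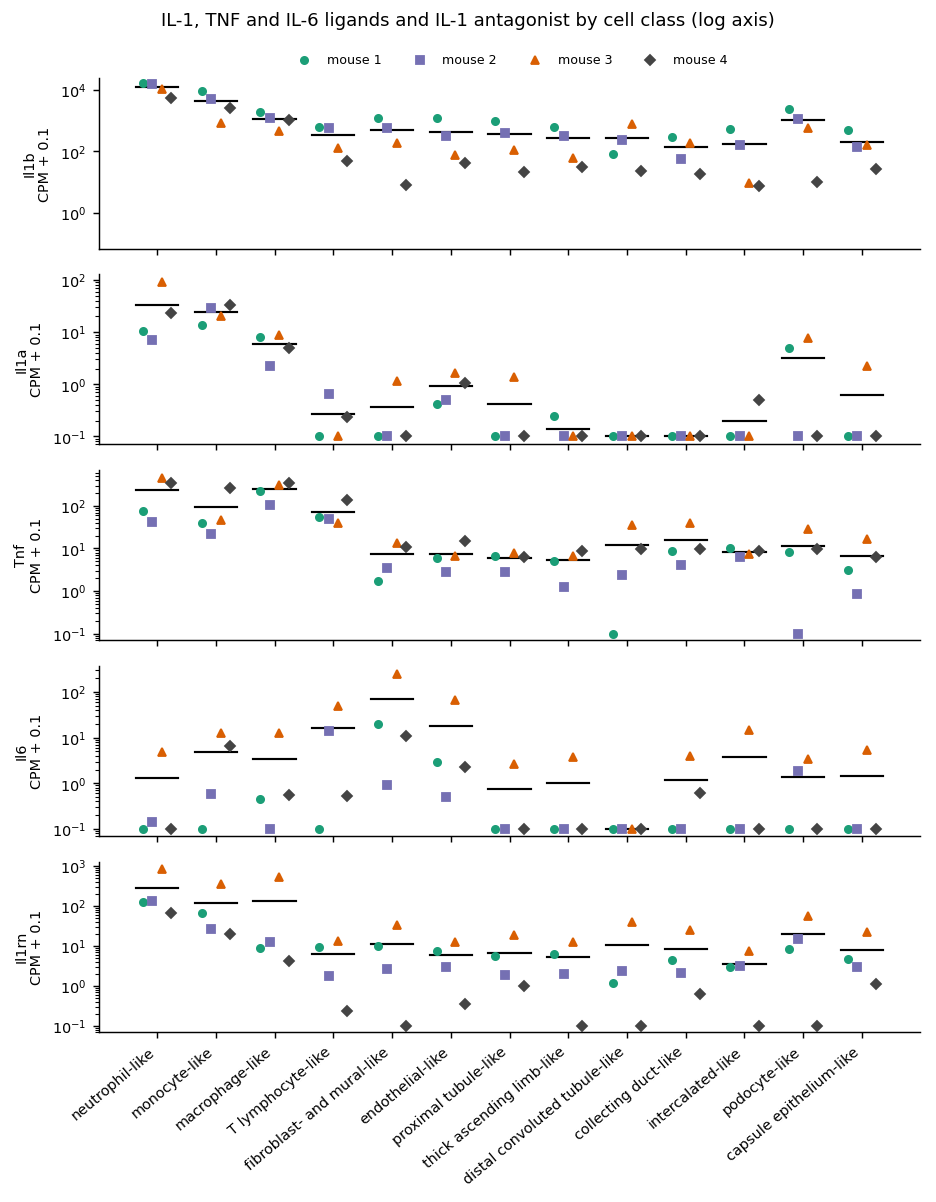
Levels of the 4 ligands and the IL-1 antagonist in 13 cell classes, in CPM + 0.1 on a log axis; symbols are the 4 mice and bars their mean. Il1b is highest in neutrophil-like cells of every mouse (5419 to 16018 CPM), whereas Il6 is highest in fibroblast- and mural-like cells of mice 1, 3 and 4 and in T lymphocyte-like cells of mouse 2 (13.8 CPM), and mouse 3 lies above the other mice for Il6 and Il1rn, except in distal convoluted tubule-like cells, where no Il6 was counted.

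Il1b was also counted in every class of tubule, endothelium and stroma, and in T lymphocyte-like cells, at a mean of 1035 CPM in podocyte-like cells and of 139 to 489 CPM in the other 9 classes. Beside it, S100a9, which encodes a calcium-binding protein of neutrophil cytosol, was counted in all of them. In mouse 1 the ratio of Il1b to S100a9 was 0.561 in neutrophil-like cells, and it was 0.708 in proximal tubule-like, 0.615 in thick ascending limb-like, 0.562 in endothelial-like and 0.449 in T lymphocyte-like cells. In mouse 2 the neutrophil-like ratio was 0.465, and those 4 classes had 0.368, 0.479, 0.455 and 0.616. The ratios of these classes thus lay around that of the neutrophil-like cells of the same mouse in mice 1 and 2. In mouse 3 the neutrophil-like ratio was 0.397, and the 4 classes had 0.228, 0.369, 0.719 and 1.46. In mouse 4 the neutrophil-like ratio was 0.0549, and the 4 classes had 0.532, 0.0659, 0.388 and 0.175, with Il1b at only 21.4 to 49.4 CPM. The ratios of mice 3 and 4 scattered more widely than those of mice 1 and 2. The summed level of 11 neutrophil markers in the same 4 classes was 1484 to 4708 CPM in mice 1 and 2, and 108 to 1161 CPM in mice 3 and 4, with at most 3 markers at 0 in any class and mouse. Il1b in these classes is given as counted and was not read as expression by their cells. Macrophage-like cells stood apart, with ratios of 3.91, 3.34, 4.57 and 103 in mice 1 to 4. The monocyte-like ratios of 0.763, 1.27, 4.04 and 0.183 were also above the neutrophil-like ratio of the same mouse. They did not stand apart in mouse 1, where podocyte-like cells had 0.957, or in mouse 4, where proximal tubule-like cells had 0.532. Monocyte-like cells held 12210 and 13885 CPM of S100a9 in mice 1 and 4.

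**Figure D2:**
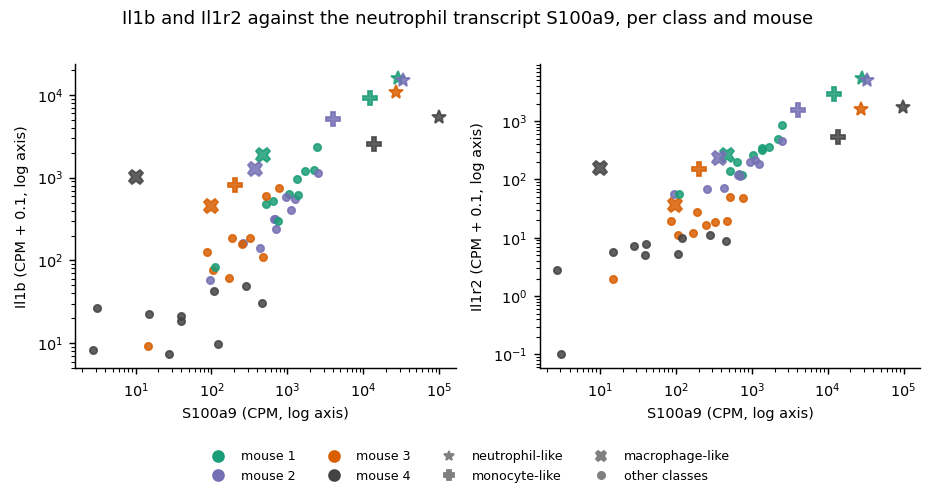
Il1b (left) and Il1r2 (right) against S100a9 in 13 cell classes of the 4 mice, in CPM on log axes; colours are mice, stars neutrophil-like, plus signs monocyte-like and crosses macrophage-like cells. Macrophage-like points lie above the run of the other classes, for example Il1b at 1027 CPM with S100a9 at 10.0 CPM in mouse 4.

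Il1a, the cell-associated IL-1, was a far rarer transcript and also myeloid. Neutrophil-like cells held 10.4, 6.94, 92.1 and 23.5 CPM, monocyte-like cells 13.5, 29.4, 20.5 and 32.4 CPM, and macrophage-like cells 7.85, 2.17, 8.61 and 4.92 CPM. Only in mouse 3 were neutrophil-like cells above monocyte-like cells, and without mouse 3 the neutrophil-like mean was 13.6 CPM in place of 33.2 ± 39.9 CPM. The step between these 2 classes did not exceed its spread, whereas the step to macrophage-like cells did (1.91 ± 1.18 on the log2 scale, n = 4). Outside the myeloid classes, podocyte-like cells held a mean of 3.10 CPM from 21 UMIs, and the means of the other 9 of the 13 classes were under 1 CPM.

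Tnf was shared by macrophages and neutrophils. Macrophage-like cells held 224, 104, 316 and 349 CPM and neutrophil-like cells 76.8, 41.7, 458 and 355 CPM in mice 1 to 4. Macrophage-like cells were thus higher in mice 1 and 2 and neutrophil-like cells in mice 3 and 4, and the paired difference did not exceed its spread (0.57 ± 1.01 on the log2 scale, n = 4). Monocyte-like cells held 39.8, 21.2, 45.4 and 266 CPM, below neutrophil-like cells in all 4 mice. T lymphocyte-like cells held 56.1, 48.5, 39.1 and 137 CPM. Macrophage-like cells contained a mean of 36.2% of a mouse's Tnf UMIs, with a range of 14.6% to 60.9%, and neutrophil-like cells 29.5%, with a range of 3.66% to 43.0%. In mouse 1 the unnamed clusters contained 50.7%, more than either class. The summed level of 12 immediate early and heat shock genes, which dissociation is known to raise, was 14085 to 30454 CPM in neutrophil-like and 7840 to 18820 CPM in macrophage-like cells, and their part in the Tnf levels was not tested.

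Il6 was highest in stroma in mice 1, 3 and 4, and vessels came second in mice 1 and 3. In fibroblast- and mural-like cells it was counted at 19.6, 0.842, 254 and 10.9 CPM in mice 1 to 4, from 24, 2, 2628 and 4 UMIs. Endothelial-like cells held 2.78, 0.409, 66.3 and 2.16 CPM, from 17, 5, 1053 and 9 UMIs. Mouse 3 thus held nearly all the Il6 UMIs, and without it the class means were 10.5 CPM in fibroblast- and mural-like and 1.78 CPM in endothelial-like cells, in place of 71.2 and 17.9 CPM. The second place of endothelial-like cells rested on mouse 3, since T lymphocyte-like (4.73 CPM) and monocyte-like cells (2.32 CPM) had higher means without it. In mouse 2 the T lymphocyte-like class was the highest, at 13.8 CPM. Fibroblast- and mural-like cells were above endothelial-like cells in all 4 mice, by 1.67 ± 0.89 on the log2 scale (SD, n = 4). Within mouse 3, Il6 was at 248.8 CPM in cluster 10, whose leading genes included Ednra, Ren1 and Rgs5, and at 338 CPM in cluster 31, whose leading genes included C7, Dcn and Pdgfra. In endothelial-like clusters 24 and 1 of the same mouse it was at 108 and 52.7 CPM. Proximal tubule-like and thick ascending limb-like cells had no Il6 UMI in mice 1, 2 and 4, which allows up to 2.64 CPM in any of these samples at 3 counts, and distal convoluted tubule-like cells had none in any mouse, which allows up to 5.87 CPM. These limits cover counting error only.

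The T lymphocyte-like class held 0, 25, 146 and 3 Il6 UMIs in mice 1 to 4. Of these, 25 UMIs in mouse 2 came from 1 cell and 137 UMIs in mouse 3 from 6 cells, all of cluster 12. These 7 cells had no UMI of the T cell genes Cd3e and Trac, and held 171 and 162 UMIs of 7 mast cell and basophil markers in mice 2 and 3. Without them, Il6 in the class was 0, 0, 3.09 and 0.415 CPM in mice 1 to 4. These cells were singled out after their values were seen.

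Il1rn, the natural brake on IL-1 signalling, was highest in neutrophils and set mouse 3 apart from the others. Neutrophil-like cells held 127, 132, 816 and 67.8 CPM, monocyte-like cells 65.2, 26.5, 357 and 19.5 CPM and macrophage-like cells 8.56, 12.1, 519.6 and 4.00 CPM in mice 1 to 4. Mouse 3 exceeded every other mouse in all 3 classes. Neutrophil-like cells were above macrophage-like cells in all 4 mice (2.88 ± 1.50 on the log2 scale, n = 4), and macrophage-like cells exceeded monocyte-like cells only in mouse 3. The mouse 3 values came from clusters that other mice hardly entered, at 520.1 CPM in macrophage-like cluster 8, 357 CPM in monocyte-like cluster 11 and 815 CPM in neutrophil-like cluster 17. In the 23 cells of mouse 1 that fell in cluster 17, Il1rn was at 73.8 CPM, against 120.2 and 133 CPM in clusters 0 and 5 of that mouse. Camp, a leading gene of cluster 17, was at 3513 CPM in neutrophil-like cells of mouse 3. It was at 278, 179 and 224 CPM in those of mice 1, 2 and 4. Il1b ordered the mice differently, and mouse 3 was the lowest of the 4 in monocyte- and macrophage-like cells.

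**Figure D3:**
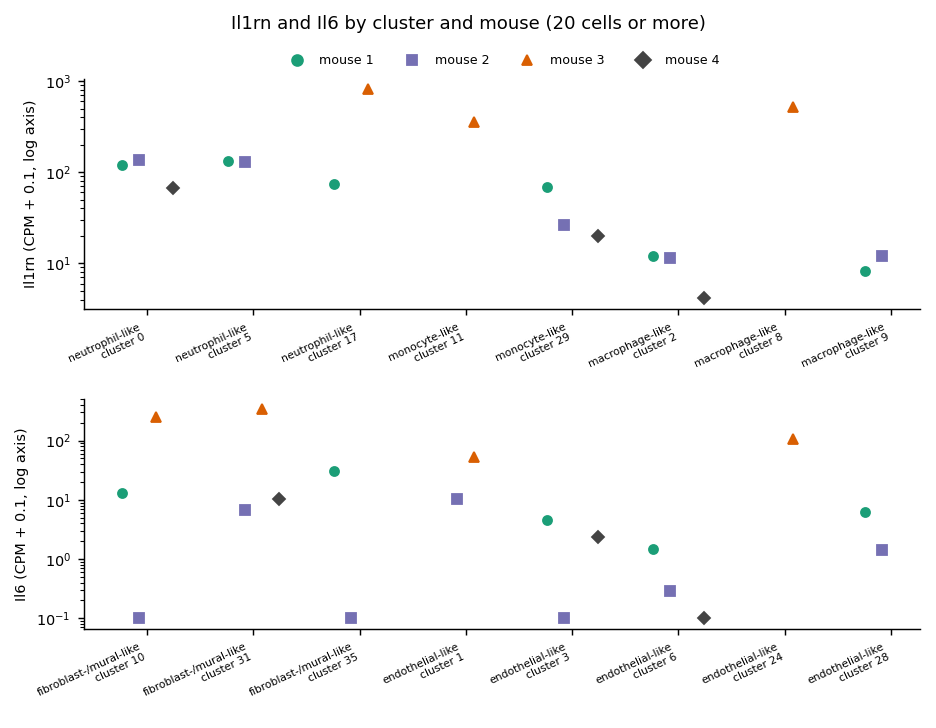
Il1rn in myeloid clusters (top) and Il6 in stromal and endothelial clusters (bottom), in CPM + 0.1 on a log axis, for each mouse with at least 20 cells in the cluster. Mouse 3 (triangles) lies at 357 to 815 CPM for Il1rn and 52.7 to 338 CPM for Il6, above all other points of each panel.

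Il1r1, the signalling IL-1 receptor, was highest in vessels, stroma and collecting duct. Endothelial-like cells held 74.1, 76.8, 178 and 32.6 CPM and fibroblast- and mural-like cells 61.2, 69.0, 136 and 49.2 CPM. Among epithelial classes, collecting duct-like cells held 86.0, 73.6, 44.9 and 37.6 CPM and intercalated-like cells 48.7, 51.3, 53.5 and 42.0 CPM, with the smallest spread of these classes (48.9 ± 5.01 CPM, SD, n = 4). These 4 classes followed each other in order, and none of the steps between them exceeded its spread. Proximal tubule-like cells held 1.56, 1.76, 14.7 and 3.46 CPM, thick ascending limb-like cells 2.10, 2.27, 7.56 and 3.40 CPM and neutrophil-like cells 5.44, 2.06, 7.78 and 0 CPM. The ranges of these 3 classes lay wholly below those of the 4 classes named first. In mouse 3, stromal cluster 31 reached 413 CPM against 121 CPM in stromal cluster 10, while in mouse 2 these clusters held 86.8 and 85.1 CPM.

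Il1r2, the decoy receptor, followed Il1b. Neutrophil-like cells held 5483, 5131, 1634 and 1718 CPM, monocyte-like cells 2901, 1559, 152 and 532 CPM and macrophage-like cells 265, 230, 36.6 and 159 CPM in mice 1 to 4. Neutrophil-like cells were above monocyte-like cells by 1.94 ± 1.06 on the log2 scale (n = 4). Neutrophil-like cells contained a mean of 61.5% of all Il1r2 UMIs, with a range of 33.2% to 84.0%. Macrophage-like cells contained more in mouse 4 (52.1%), and the unnamed clusters contained 38.6% in mouse 1. As with Il1b, UMIs were counted in all other classes and not read as expression there, and the ratio of Il1r2 to Il1b in mouse 1 was 0.355 in proximal tubule-like, 0.401 in endothelial-like and 0.342 in neutrophil-like cells. Mouse 3 had a neutrophil-like ratio of 0.151, with 0.179 and 0.145 in those 2 classes, so the lower ratio of this mouse was also present in those classes. Mice 2 and 4 were less even. The neutrophil-like ratio of mouse 2 was 0.335, with 0.525 and 0.392 in those classes, and that of mouse 4 was 0.317, with 0.365 and 0.125. Other classes departed further, such as collecting duct-like cells of mouse 2 (0.966) and distal convoluted tubule-like cells of mouse 1 (0.665).

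**Figure D4:**
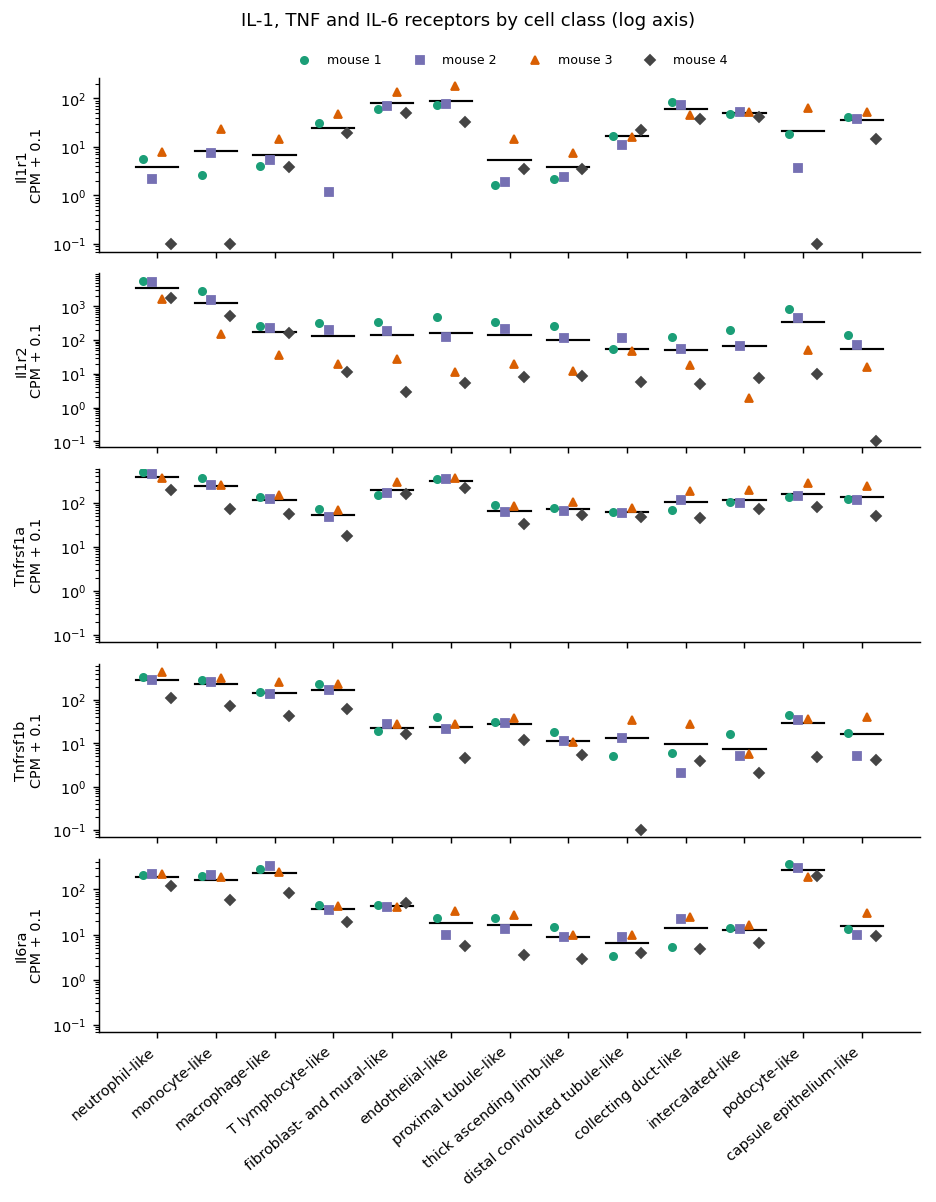
Levels of the 5 receptors in 13 cell classes, in CPM + 0.1 on a log axis; symbols are the 4 mice and bars their mean. Il1r1 is lowest in neutrophil-like and proximal tubule- and thick ascending limb-like cells (means of 3.82 to 5.36 CPM), Il1r2 is highest in neutrophil-like cells, and Tnfrsf1a is at 17.4 CPM or more in each of the 13 classes in every mouse.

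Tnfrsf1a was counted in each of the 13 classes in every mouse. Neutrophil-like cells held 513, 454, 370 and 196 CPM and endothelial-like cells 354, 352, 374 and 215 CPM, and the difference between them did not exceed its spread. Monocyte-like (239.9 ± 126 CPM) and fibroblast- and mural-like cells (192 ± 70.8 CPM) came next, and the lowest means of the 13 classes were those of distal convoluted tubule-like (61.4 ± 11.3 CPM) and T lymphocyte-like cells (52.3 ± 25.6 CPM, SD, n = 4). Tnfrsf1b was a leukocyte transcript. Its means were 297 ± 142 CPM in neutrophil-like, 241 ± 116 CPM in monocyte-like, 173 ± 79.3 CPM in T lymphocyte-like and 147 ± 89.2 CPM in macrophage-like cells (SD, n = 4), and the mean of no other class of the 13 exceeded 29.8 CPM. Macrophage-like cells were above podocyte-like cells, the next class, in all 4 mice (2.34 ± 0.59 on the log2 scale). Mouse 4 was lowest in each of these 4 leukocyte classes.

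Il6ra had an epithelial as well as a myeloid site. Podocyte-like cells, the filter cells of the glomerulus, held 376, 304, 188 and 194 CPM, from 229, 168, 453 and 40 UMIs. Macrophage-like cells held 287, 328, 244 and 83.9 CPM, neutrophil-like cells 204, 224, 220 and 117 CPM and monocyte-like cells 197, 207, 193 and 58.4 CPM. No step between these 4 classes exceeded its spread, whereas the step from monocyte-like to fibroblast- and mural-like cells did (1.73 ± 0.99 on the log2 scale, n = 4). Fibroblast- and mural-like cells had the next level of the 13 classes, at 43.8 ± 4.19 CPM. The summed level of 10 macrophage markers in podocyte-like cells was 2850, 2856, 1382 and 1675 CPM, against 19625, 21480, 4170 and 26117 CPM in macrophage-like cells, and their part in the Il6ra of podocyte-like cells was not tested.

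Differences between classes were then tested with edgeR's quasi-likelihood test on UMIs summed per mouse and class, with the mouse as a block and Benjamini-Hochberg adjustment over all genes tested. A gene was called at an adjusted p under 0.05, and log2 fold changes are class named first over class named second, with SE. Of 50 member tests, 43 passed the low-count filter and 18 were called. Genes of the same pathways were taken from 5 lists of 59 genes in all. Those named below kept their call in all alternatives that had the mouse block and in which they were tested. An alternative in which a gene fell under the low-count filter was not counted.

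Neutrophils were set against macrophages and monocytes to ask which myeloid cells carried each transcript. Of 9 members tested, 6 were higher in neutrophil-like cells and the other 3 were not called, where 22.2% of all 13380 genes tested were called higher and 25.7% lower. Il1r2 (3.92 ± 0.43, adjusted p = 0.000917), Il1b (3.47 ± 0.57, adjusted p = 0.00344) and Il1rn (3.25 ± 0.47, adjusted p = 0.00217) had the largest differences, each in 4 of 4 mice. Tnfrsf1a (2.05 ± 0.29), Il1a (1.78 ± 0.45) and Tnfrsf1b (1.57 ± 0.26) were also called, with Il1a higher in 3 of 4 mice. Against monocyte-like cells alone, Il1a was higher in neutrophil-like cells only in mouse 3, so its call holds for the pool with macrophage-like cells. Tnf (0.53 ± 0.46, adjusted p = 0.355) and Il6ra (0.62 ± 0.23, adjusted p = 0.0564) did not pass, and both changed sign with scaling by total UMIs (-0.15 and -0.07), as did Tnf without mouse 3 (-0.0018). Il6ra passed when the cells with the highest doublet scores were left out (0.68, adjusted p = 0.0431). Il6 did not pass the low-count filter.

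The call of Il1a was lost without mouse 4 (1.65, adjusted p = 0.0610) and with scaling by total UMIs (1.07, adjusted p = 0.122). That scaling gave a median of -0.79 over all genes in place of -0.03, and of all calls 20.3% were then in the higher direction in place of 46.3%. With cluster 8 left out of the macrophages, the same 6 members were called. Neutrophil-like cells held 201 to 776 CPM of summed macrophage markers, against 4170 to 26117 CPM in macrophage-like cells.

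Other genes of the pathways moved in the same comparison. Of 51 pathway genes tested, 22 were higher in neutrophil-like cells and 4 lower, where 22.2% of all genes were called higher and 25.7% lower. The median log2 fold change was 0.56 against -0.03 over all genes. In the list of IL-1 receptors and signalling, 8 of 15 were higher, among them Il1rap, the chain that Il1r1 needs to signal (493 ± 363 CPM in neutrophil-like and 47.0 ± 51.0 CPM in macrophage- and monocyte-like cells, SD, n = 4, log2 4.34 ± 0.46), and the IL-18 receptor chains Il18rap (3.33 ± 0.29) and Il18r1 (3.16 ± 0.47). Il36g, an IL-1 family cytokine, was at 319 ± 36.5 CPM in neutrophil-like cells and 15.4 ± 18.5 CPM in macrophage- and monocyte-like cells (5.91 ± 0.83). Of the TNF list 6 of 16 were called, all higher, including the NF-kB inhibitors Nfkbia (2.35 ± 0.43) and Tnfaip3 (1.89 ± 0.35) and the ubiquitin ligase Birc3 (2.26 ± 0.28). In the IL-6 family, the cytokine Osm was higher (4.08 ± 0.46), whereas Il6st, the chain that carries the IL-6 signal, was lower at 4.56 ± 5.74 against 45.9 ± 21.9 CPM (-2.81 ± 0.64). The IL-6 response gene Cebpb (2.65 ± 0.39) and the transducer Stat3 (1.89 ± 0.41) were among 6 of 10 higher in the IL-6 signalling list.

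**Figure D5:**
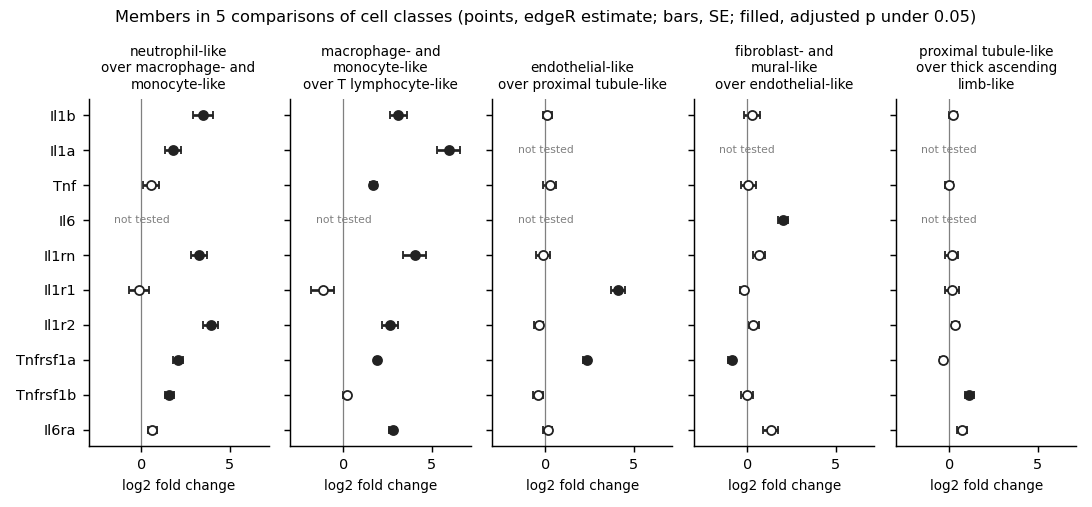
Log2 fold changes (points) with SE (bars) of the 10 genes in 5 comparisons of cell classes; filled points passed an adjusted p of 0.05 in edgeR's quasi-likelihood test over 4 mice. Positive values are higher in the class named first, for example Il1r2 at 3.92 in neutrophil-like over macrophage- and monocyte-like cells and Il1r1 at 4.12 in endothelial-like over proximal tubule-like cells.

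Macrophages and monocytes were set against T lymphocytes to separate phagocyte from lymphoid expression. Of 9 members tested, 7 were higher in macrophage- and monocyte-like cells and the other 2 were not called, where 22% of all genes were called higher and 16.5% lower. Il1rn (4.05 ± 0.65, adjusted p = 0.00347), Il1b (3.11 ± 0.46, adjusted p = 0.00242), Il6ra (2.78 ± 0.19, adjusted p = 0.000108) and Il1r2 (2.63 ± 0.45) differed most among those with ample counts, followed by Tnfrsf1a (1.90 ± 0.14) and Tnf (1.69 ± 0.21). Il1a was called too, but T lymphocyte-like cells held 2 UMIs of it against 628 in macrophage- and monocyte-like cells, a ratio of levels of 83.6 with a counting interval of 23.1 to 692. Each of the 7 was higher in 4 of 4 mice. In T lymphocyte-like cells, Il1b and Il1r2 were counted beside the neutrophil markers given above and were not read as expression by these cells. The fold changes of Il1b and Il1r2 therefore compare counts only. Tnfrsf1b did not pass (176 ± 109 against 173 ± 79.3 CPM, adjusted p = 0.471), and its sign changed under 3 of 14 alternatives. Il1r1, at 8.30 ± 7.98 CPM for macrophage- and monocyte-like cells and 24.95 ± 19.9 CPM for T lymphocyte-like cells, did not pass either (-1.19 ± 0.65, adjusted p = 0.199), but passed without mouse 2 (-1.80, adjusted p = 0.0206) and with no filter on low counts (-1.16, adjusted p = 0.00103). Il1rn was higher without mouse 3 as well (2.85, adjusted p = 0.00574), at means of 14.9 and 3.72 CPM. Scaling by total UMIs gave 36.9% of all calls in the higher direction in place of 57.2%, with a median of -0.27 over all genes in place of 0.03, and kept the calls of all 7 members.

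Of 49 pathway genes tested in this comparison, 14 were higher in macrophage- and monocyte-like cells and 10 lower. The shares over all genes were 22% and 16.5%, and the pathway median was 0.21 against 0.03 over all genes. Il18 (50.4 ± 16.6 against 2.16 ± 1.47 CPM, log2 4.68 ± 0.29), the receptor adaptor Myd88 (1.61 ± 0.14) and the signalling inhibitor Irak3 (2.26 ± 0.28) were higher, and so was Adam17, the protease that sheds TNF (1.17 ± 0.14). The leukaemia inhibitory factor receptor Lifr was at 204 ± 187 against 6.24 ± 2.18 CPM (4.63 ± 0.55). The T cell receptors for IL-18 and IL-27 went the other way: Il18r1 was at 5.96 ± 2.86 against 360.3 ± 100.3 CPM (-5.77 ± 0.45) and Il27ra at 0.631 ± 0.259 against 80.0 ± 24.2 CPM (-6.66 ± 0.24). Of the IL-6 signalling list, Cebpb (2.40 ± 0.28) and the feedback inhibitor Socs3 (1.97 ± 0.21) were higher, and the kinase Jak1 was lower (-1.32 ± 0.15).

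Endothelium was set against proximal tubule to compare vessels with the main epithelium of the cortex. Of 8 members tested, Il1r1 and Tnfrsf1a were higher in endothelial-like cells and the other 6 were not called, where 26.7% of all genes were called higher and 25.1% lower, so the members were not called more often than genes in general. Il1r1 averaged 90.5 ± 62.0 CPM in endothelial-like cells, against 5.36 ± 6.25 CPM in the proximal tubule (4.12 ± 0.38, adjusted p = 7.56e-05). Tnfrsf1a averaged 324 ± 73.2 CPM in endothelial-like cells, against 67.1 ± 26.3 CPM in the proximal tubule (2.34 ± 0.21, adjusted p = 6.25e-05). Both were higher in 4 of 4 mice, and without cluster 1 they stood at 4.16 and 2.21 on the log2 scale. Il1b was called at clustering resolution 0.5 (0.85, adjusted p = 0.0177) and changed sign under 3 of 14 alternatives. Il1a and Il6 did not pass the low-count filter as first clustered, but at resolution 0.5 at least 1 of them passed it and was called. Il1b and Il1r2 were counted in both classes beside the neutrophil markers given above.

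Of 48 pathway genes tested, 21 were higher in endothelial-like cells and 4 lower (median 0.42 against 0.05 over all genes). The shares over all genes were 26.7% higher and 25.1% lower. Il33, a nuclear alarmin of the IL-1 family, was at 129.6 ± 89.4 CPM in endothelial-like cells, against 3.20 ± 1.72 CPM in the proximal tubule (4.85 ± 0.64), and Irak3 at 99.96 ± 55.3 against 19.0 ± 21.7 CPM (2.69 ± 0.31). Of the IL-6 family, the oncostatin M receptor Osmr (3.12 ± 0.57) and Il6st (1.23 ± 0.21) were higher, and the cytokine Clcf1 was lower (-1.86 ± 0.23). In the IL-6 signalling list 7 of 10 were higher, among them Socs3 (257 ± 69.5 against 46.3 ± 25.7 CPM, 2.61 ± 0.39) and Socs1 (2.10 ± 0.44). Of the TNF list, Nfkbia was higher (2.45 ± 0.25).

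Stroma was set against endothelium to compare the non-epithelial, non-leukocyte classes. Of 9 members tested, Il6 was higher in fibroblast- and mural-like cells and Tnfrsf1a lower, where 14.9% of all genes were called higher and 15.8% lower. Il6 stood at 2.05 ± 0.28 (adjusted p = 0.00136), higher in 4 of 4 mice. Without mouse 3 it fell under the low-count filter and could not be tested, and without cluster 1 it stood at 1.82 (adjusted p = 0.00893). Tnfrsf1a averaged 192 ± 70.8 CPM in fibroblast- and mural-like and 324 ± 73.2 CPM in endothelial-like cells (-0.88 ± 0.19, adjusted p = 0.0106), a call that was lost without mouse 1 (-0.80, adjusted p = 0.0638) or mouse 2 (-0.81, adjusted p = 0.0833). Il6ra, at 44.9, 41.2, 39.8 and 49.2 CPM in fibroblast- and mural-like cells and 23.0, 9.73, 34.0 and 5.51 CPM in endothelial-like cells, missed the threshold (1.33 ± 0.43, adjusted p = 0.0521) and passed it under 8 of 14 alternatives, one of them without mouse 3 (1.85, adjusted p = 0.00669). Il1r1 did not pass (adjusted p = 0.422).

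Of 49 pathway genes tested, 4 were higher in fibroblast- and mural-like cells and 13 lower, with a median of -0.22 against -0.05 over all genes. The shares over all genes were 14.9% higher and 15.8% lower. The lower ones included Sigirr, an inhibitory IL-1 family receptor (0.640 ± 0.533 against 22.5 ± 13.5 CPM, log2 -4.07 ± 0.48), the protease Casp8 (18.4 ± 2.15 against 79.0 ± 5.63 CPM, -2.20 ± 0.16), Casp1, which cleaves pro-IL-1β (-1.71 ± 0.31), and Socs1 (-2.06 ± 0.27). None of the 4 higher genes named by the rule kept its call in all alternatives.

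Proximal tubule was set against thick ascending limb to compare 2 epithelia. Of 8 members tested, Tnfrsf1b was higher in proximal tubule-like cells and the other 7 were not called, where 19.1% of all genes were called higher and 19% lower. It was at 31.6, 29.1, 39.3 and 11.8 CPM in the proximal tubule, against 18.0, 11.3, 10.6 and 5.43 CPM in the thick ascending limb (1.14 ± 0.25, adjusted p = 0.00459), higher in every mouse. The call was lost at clustering resolution 0.5 (0.68, adjusted p = 0.0793) and without the mouse block (1.09, adjusted p = 0.0625), and after thinning the gene fell under the low-count filter. At resolution 0.5 Il1r1 was called (1.76, adjusted p = 0.00302). Leaving out the highest doublet scores added Il6ra (1.08, adjusted p = 0.0169), and scaling by total UMIs added it as well (0.90, adjusted p = 0.0237) and gave 61.6% of all calls in the higher direction in place of 50.1%, with a median of 0.17 over all genes in place of 0.00. Il6ra was at 22.7, 13.2, 27.2 and 3.46 CPM in the proximal tubule, against 14.3, 8.68, 9.61 and 2.72 CPM in the thick ascending limb, and did not pass as first scaled (0.73 ± 0.27, adjusted p = 0.0611).

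Of 46 pathway genes tested, 12 were called higher for the proximal tubule and 8 lower (median 0.01 against 0.00 over all genes). The shares over all genes were 19.1% higher and 19% lower. The IL-1 receptor kinase Irak2 was at 121 ± 35.2 CPM in the proximal tubule, against 16.2 ± 7.54 CPM in the thick ascending limb (2.75 ± 0.22), and the caspase-8 regulator Cflar at 245 ± 143 against 63.4 ± 22.7 CPM (1.70 ± 0.19). The IL-36 cytokine Il36a was at 2.15 ± 3.67 against 30.4 ± 25.2 CPM (-3.96 ± 0.56). Of the IL-6 family receptors, Lifr (-1.78 ± 0.23) and Il11ra1 (-1.72 ± 0.26) were lower in proximal tubule-like cells, as was Socs3 (-1.57 ± 0.34).

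The genes whose class means were most like those of each member were ranked by Pearson's r of log2(mean CPM + 1) over 13 classes, as a description, since the class means share libraries and depth. Il1b was closest to the receptors Cd300lf (r = 0.993) and Tlr6 (r = 0.993), and Il1r2 to the granulocyte colony-stimulating factor receptor Csf3r (r = 0.993) and the amplifying receptor Trem1 (r = 0.991). Il1rn ranked with Ptafr (r = 0.976), and Il1a was closest to Nfam1 and Fgr (r = 0.980 for both). Tnf ranked with Cyrib (r = 0.971) and Arrb2 (r = 0.966), Tnfrsf1b with Apbb1ip (r = 0.989) and 1600014C10Rik (r = 0.987), and Tnfrsf1a with Crk (r = 0.977) and Arf2 (r = 0.952). Outside the leukocyte pattern, Il6 ranked with the phosphatase Ptp4a3 (r = 0.922) and Ms4a4d (r = 0.913), both highest in fibroblast- and mural-like cells. Il6ra ranked with Metrnl (r = 0.965) and Gm44710 (r = 0.936), and Il1r1 had the weakest closest match, Nucb1 (r = 0.877).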

How the data were processed

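Matrices of raw UMI counts per gene and barcode were deposited by the authors, one per mouse, and were made with Cell Ranger, per the file headers. Cell Ranger 9.0.1 and Seurat 4.1.1 are named in the submitters' processing notes. The genome build is not stated in the labels or headers used here. The 4 mice form 1 group, and both classes of each comparison come from the same animals, so the mouse was a block.

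Barcodes with at least 500 UMIs, 300 genes and at most 50% mitochondrial UMIs passed the filters (40939 of 48213). A doublet caller (Scrublet) marked 0, 107, 1 and 1 cells in mice 1 to 4, which were left out, so 40830 cells were kept. It did not work in mice 1, 3 and 4, and doublets may remain in all 4 mice. Cells were clustered (scanpy 1.11.5, Leiden, resolution 1) and a cluster was named where at least 3 markers had UMIs in 20% of its cells at 2-fold the other cells, provided that no list of another lineage reached 50% of its markers, with limits on doublet score (a median of 0.15) and depth, all set after seeing the data. UMI counts were summed per mouse and class and tested with edgeR 4.0.16 (quasi-likelihood, TMM, Benjamini-Hochberg over all genes). On simulated counts with 200 changed genes among 11913 to 13380, the test recovered 90% to 97% of genes changed 4-fold. Far more genes were called in the data, so this recovery may not hold there. DESeq2 1.42.0 and R 4.3.3 were also used. The members and lists were chosen with earlier results of these data known. All 10 members were named, and of each pathway list up to 3 called genes per direction with the largest fold changes, of which the text gives those with stable calls. Of 57132 gene IDs, 51880 matched RefSeq. Some genes ranked as most like a member are not reported here.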

Additional observations from a re-analysis of the deposited data

Results flagged for a closer look

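Among 87 sets of 4 mice (a member in a class), 11 held 1 mouse whose gap to the nearest other mouse, relative to the range of the 4, exceeded Dixon's limit, which chance passes in about 1 of 20 sets. Mouse 3 was the outlying mouse in 8 of them, and none of these values was explained or tested.

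Il1rn in mouse 3 was at 816.5 CPM in neutrophil-like cells (67.8 to 132 CPM in the other mice), at 519.6 CPM in macrophage-like cells (4.00 to 12.1 CPM), at 356.7 CPM in monocyte-like cells (19.5 to 65.2 CPM) and at 39.13 CPM in distal convoluted tubule-like cells (0 to 2.22 CPM). Il6 in mouse 3 was at 253.5 CPM in fibroblast- and mural-like cells (0.842 to 19.6 CPM) and at 66.33 CPM in endothelial-like cells (0.409 to 2.78 CPM). Tnf in mouse 3 was at 40.02 CPM in collecting duct-like cells (3.98 to 9.41 CPM), and Tnfrsf1a at 298.1 CPM in fibroblast- and mural-like cells (149 to 167 CPM).

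In mouse 4, the shallowest library, Tnf was at 266.0 CPM in 38 monocyte-like cells (21.2 to 45.4 CPM in the other mice). Il6ra was at 58.39 CPM in the same cells (193 to 207 CPM), and Tnfrsf1a was at 215.1 CPM in endothelial-like cells (352 to 374 CPM).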

How the results depend on the processing

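Over the alternatives run, the calls of members kept their direction and side of the threshold in 235 of 248 cases in which the gene was tested. Cases under the low-count filter, such as Il6 without mouse 3 and Tnfrsf1b after thinning, are not among them. All 10 levels in the highest class moved by less than 1 SD of the 4 mice. Where 1 mouse was left out this was fixed in advance, since omitting 1 of 4 values cannot move their mean by 1 SD. That SD is itself large with mouse 3, and without mouse 3 the levels of Il6 in fibroblast- and mural-like cells (10.5 in place of 71.2 CPM) and, in neutrophil-like cells, of Il1rn (109 in place of 286 CPM) and Il1a (13.6 in place of 33.2 CPM) moved by over 1.5 times. Of 25 member tests that were not called, 19 changed sign in at least 1 alternative and 6 were called in at least 1. Without the replicate block, calls of members fell to 4, 4, 2, 0 and 0 in the 5 comparisons in the order of the report, against 6, 7, 2, 2 and 1 with the block, and calls of pathway genes fell to 16, 10, 10, 3 and 6, against 26, 24, 25, 17 and 20. Over all genes, calls in the higher direction fell as well, from 2969, 2805, 3431, 1952 and 2272 to 1651, 1505, 1883, 1112 and 1148. Those in the lower direction fell from 3443, 2101, 3226, 2076 and 2260 to 1696, 965, 2053, 946 and 1066. Thinning to 1000 UMIs per cell left 13, 6 and 8 pathway genes in the last 3 comparisons. Over all genes it left 1966, 1058 and 1028 calls in the higher and 2145, 1200 and 996 in the lower direction there. It left no member in proximal tubule-like over thick ascending limb-like cells. In that comparison, total UMI scaling and leaving out the highest doublet scores each gave 2 members. Clustering resolution 0.5 gave 4 members in endothelial-like over proximal tubule-like cells. Leaving out 1 mouse gave 1 to 2 members and 5 to 17 pathway genes in fibroblast- and mural-like over endothelial-like cells (lowest members without mouse 1 or 2, lowest pathway genes without mouse 2).

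The member tests that changed sign, none of them called as reported, are given with their log2 fold change as reported in parentheses. For neutrophil-like over macrophage- and monocyte-like cells, Tnf (0.53) was at -0.0018 to 0.83 without 1 mouse and -0.15 with total UMI scaling. Il1r1 (-0.14) was at -0.78 to 0.16 without 1 mouse. Il6ra (0.62) was at -0.071 with total UMI scaling. For macrophage- and monocyte-like over T lymphocyte-like cells, Tnfrsf1b (0.19) was at -0.0024 to 0.27 without 1 mouse, -0.11 with total UMI scaling and -0.072 after thinning. For endothelial-like over proximal tubule-like cells, Tnf (0.24) was at -0.063 to 0.42 without 1 mouse and -0.14 without the highest doublet scores. Tnfrsf1b (-0.42) was at 0.12 at clustering resolution 0.5. Il1b (0.096) was at -0.10 to 0.25 without 1 mouse, -0.29 after thinning and -0.033 without the highest doublet scores. Il1rn (-0.12) was at -0.35 to 0.14 without 1 mouse, 0.0040 with no filter on low counts and 0.50 at clustering resolution 0.5. Il1r2 (-0.38) was at 0.088 without the replicate block and 0.48 at clustering resolution 0.5. Il6ra (0.14) was at -0.072 to 0.29 without 1 mouse and -0.024 without the highest doublet scores. For fibroblast- and mural-like over endothelial-like cells, Tnf (0.044) was at -0.49 to 0.33 without 1 mouse, -0.17 without the replicate block, -0.072 with DESeq2, -0.036 with no filter on low counts, -0.44 at clustering resolution 0.5, -0.71 without the highest doublet scores and -0.29 without cluster 1. Tnfrsf1b (-0.042) was at -0.26 to 0.33 without 1 mouse, 0.040 with DESeq2, 0.042 with total UMI scaling and 0.080 after thinning. Il1b (0.24) was at -0.058 to 0.62 without 1 mouse and -0.22 at clustering resolution 0.5. Il1r1 (-0.21) was at 0.0065 after thinning. Il1r2 (0.33) was at -0.13 without the replicate block and -0.037 at clustering resolution 0.5. For proximal tubule-like over thick ascending limb-like cells, Tnf (0.00069) was at -0.13 to 0.21 without 1 mouse, -0.041 with no filter on low counts, -0.12 under 20% mitochondrial UMIs and -0.23 at clustering resolution 0.5. Il1b (0.19) was at -0.24 at clustering resolution 0.5 and -0.059 without the highest doublet scores. Il1rn (0.13) was at -0.10 at clustering resolution 0.5. Il1r2 (0.34) was at -0.25 at clustering resolution 0.5, -0.039 after thinning and -0.32 without the highest doublet scores. The cause of these changes was not tested. Pairing rests on the animal. Precision is limited by 4 mice, by 38 monocyte-like cells in mouse 4 and by Il6, with 2 to 9 UMIs in the stromal and endothelial classes of mice 2 and 4. The alternatives without clusters 1 or 8 and with total UMI scaling were chosen after seeing the data.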

Other observations

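Clusters left unnamed also carried these transcripts. Unnamed cluster 15, 770 cells of mouse 1 and 261 of mouse 2 held Il1b at 11097 CPM in mouse 1 and 9472 CPM in mouse 2, and Il1rn at 82.4 and 90.0 CPM. Its cells passed 10 of 10 macrophage markers, and the cluster was left unnamed because at least 50% of the markers of another lineage passed as well. Its median was 15121 UMIs per cell, against 3918 and 8037 in neutrophil-like clusters 0 and 5 and 6624.5 in macrophage-like cluster 9. Its median doublet score was 0.079, against 0.037, 0.044 and 0.018 there. Unnamed clusters 34 and 36 scored higher, at 0.223 and 0.279. Whether its droplets held mixed cells was not tested, and its Il1b was not assigned to a cell type. Unnamed cluster 32, led by Calca, Il1rl1 and Areg, held Il6 at 195 CPM in 29 cells of mouse 3 (39 UMIs) and at 31.7 CPM in 171 cells of mouse 4 (12 UMIs). Dendritic-like cells, which reached 20 cells in mouse 3 only, held there Il1b at 994.97 CPM, Il1rn at 362 CPM and Il6 at 35.6 CPM.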
